A study of Ovis aries with 22 samples.

Results

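The genes described here are 10 genes through which arterial smooth muscle takes up, stores, releases and expels calcium. They were chosen by name, with earlier results of these data known. As rows of the raw count tables of sheep (Ovis aries) sinus wall, they make up 10 of 26200 named rows. They are the L-type calcium channel genes CACNA1C and CACNB2, the phospholamban gene PLN, the store pump genes ATP2A2 and ATP2A3, the plasma membrane pump genes ATP2B1 and ATP2B4, and the release channel genes ITPR1, RYR2 and RYR3. For 9 genes the row carries the symbol. ATP2B4 has no row under its symbol and was matched through its NCBI gene ID to the row LOC101104306.

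The tissue is the wall of the arterial sinuses, the bulges of the vessel just above the valve leaflets, profiled by RNA sequencing of total RNA. Pulmonary autograft sinus came from 3 sheep, 6 months after the Ross procedure, in which the animal's own pulmonary root is moved into the aortic position. Native aortic sinus and native pulmonary sinus came from 4 other sheep, named D3 to D6 and not operated on per the design text, each giving 1 library of each sinus. The aortic library of animal D3 (aortic replicate 1) carries the treatment "Ross surgery" in its sample label, against the design text, and results that change without it are given. The labels give neither strain nor age. The autograft and native tissue come from different animals, so the operation and the animal cannot be told apart. Library totals were 17380599 to 20741334 counts, and the 10 genes had between 77 and 48945 counts per library.

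In a smooth muscle cell, depolarization opens the L-type channel, whose pore is the product of CACNA1C, and calcium from outside triggers contraction. A second source is the sarcoplasmic reticulum, the internal store, which releases calcium through inositol trisphosphate receptors (ITPR genes) and ryanodine receptors (RYR genes). The pumps of the ATP2A family refill the store, phospholamban holds the main pump back until it is phosphorylated, and the pumps of the ATP2B family push calcium out across the plasma membrane.

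Relative to both native sinuses, the autograft held less RNA of the L-type channel subunits, of both store pumps and of phospholamban. Against pulmonary sinus, 7 of the 10 genes fell (CACNA1C, CACNB2, PLN, ATP2A2, ATP2A3, ATP2B4 and RYR3) and 0 rose, where 5.29% of 14979 genes tested fell, 6.05% rose and 11.3% did either. Against aortic sinus, 5 of the 10 fell (CACNA1C, CACNB2, PLN, ATP2A2 and ATP2A3) and 0 rose, where 1.43% of all genes fell, 0.948% rose and 2.38% did either. A gene is said to fall or rise when its Benjamini-Hochberg adjusted p, over all genes tested in edgeR's quasi-likelihood fit, was under 0.05. The median log2 fold change of the 10 genes was -1.09 against pulmonary sinus and -0.99 against aortic sinus, and that of all genes tested was 0.00 in both. Both comparisons share the autograft libraries. Because the 10 genes were chosen with earlier results of these data known, their shares beside those of all genes are a description.

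**Figure D1:**
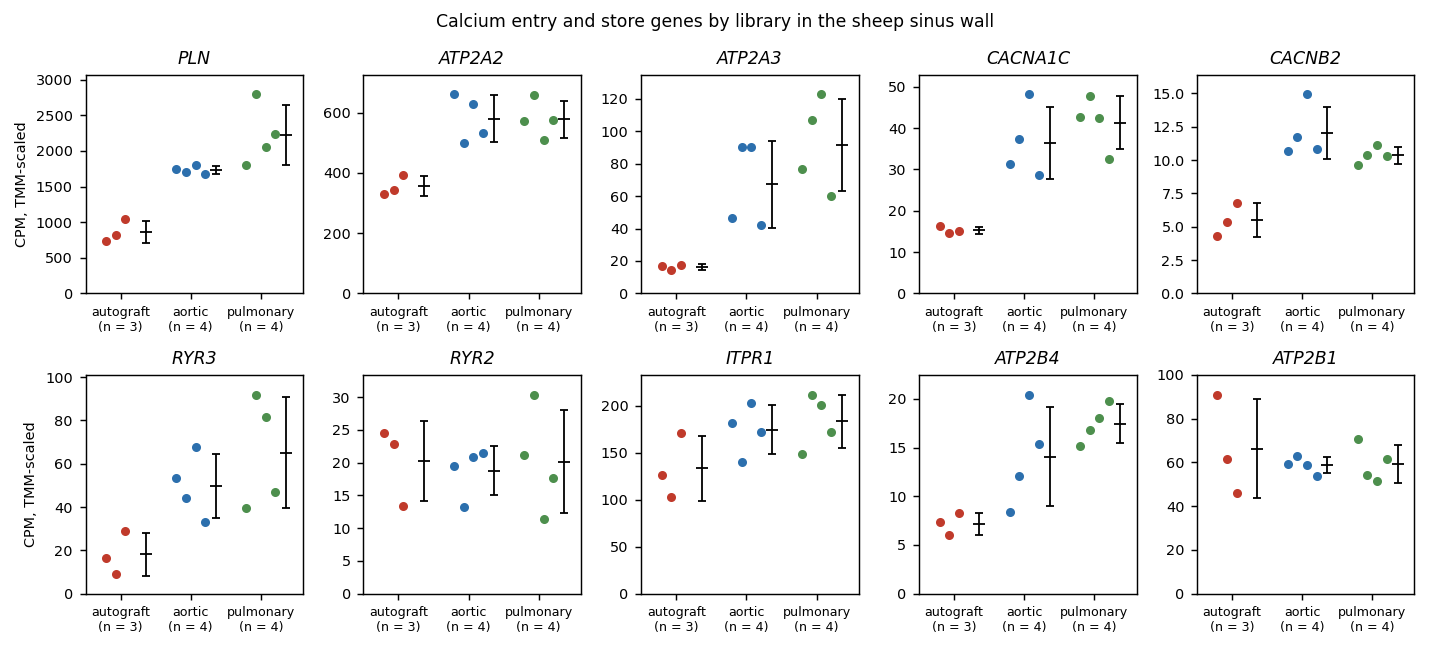
Expression of the 10 genes in each library, in CPM (counts scaled to library size) with TMM scaling on a linear axis from 0. Points are libraries in the order of their replicate numbers, and bars are mean ± SD. The 3 autograft libraries lie below all 8 native libraries for PLN, ATP2A2, ATP2A3, CACNA1C, CACNB2, RYR3 and ATP2B4 and overlap them for RYR2, ITPR1 and ATP2B1.

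The L-type channel genes were low in every autograft library. CACNA1C, which encodes the pore, stood at 16.3, 14.6 and 15.1 CPM (counts scaled to library size) in the autografts. It stood at 31.2, 37.4, 48.2 and 28.7 CPM in aortic sinus and at 42.7, 47.8, 42.3 and 32.4 CPM in pulmonary sinus. The autografts lay below all native libraries and closer together than these, while the native sinuses overlapped with each other. The means were 15.3 ± 0.843 CPM in the autograft (SD, n = 3), 36.4 ± 8.66 CPM in aortic sinus and 41.3 ± 6.45 CPM in pulmonary sinus (SD, n = 4 each). The log2 fold change was -1.43 ± 0.19 (SE) against pulmonary sinus, with an edgeR adjusted p = 0.00514, and -1.25 ± 0.19 against aortic sinus, with an adjusted p = 0.0170. Against pulmonary sinus the call held in all 11 fits that left out 1 library. Against aortic sinus it held in 10 of 11 and ended without autograft replicate 2 (adjusted p = 0.0756).

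CACNB2 encodes an auxiliary beta subunit that brings the pore to the membrane. Its counts were low throughout, with 4.33, 5.36 and 6.81 CPM in the autografts. In aortic sinus it had 10.7, 11.7, 14.9 and 10.8 CPM, and in pulmonary sinus 9.60, 10.4, 11.1 and 10.3 CPM. No autograft library reached a native one. The fall was -1.13 ± 0.20 on the log2 scale against aortic sinus (edgeR adjusted p = 0.0265) and -0.91 ± 0.20 against pulmonary sinus (0.0193). Against pulmonary sinus the call ended without autograft replicate 2 (adjusted p = 0.0602) or pulmonary replicate 3 (0.0550). Against aortic sinus it ended when any 1 of the autograft replicates 1 and 2 or of the 4 aortic libraries was left out, with adjusted p of up to 0.0885 (without autograft replicate 2), and without animal D3 (0.0525).

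PLN, the gene of the store pump inhibitor phospholamban, had the most counts of the 10 genes in all 11 libraries. It reached 733, 820 and 1038 CPM in the autografts. The aortic libraries lay close together at 1753, 1708, 1802 and 1674 CPM, and the pulmonary libraries at 1805, 2794, 2063 and 2244 CPM. The 3 groups did not overlap, in the order autograft, aortic, pulmonary, but aortic replicate 3 (1802 CPM) lay only just under pulmonary replicate 1 (1805 CPM). The log2 fold change was -1.37 ± 0.17 against pulmonary sinus (edgeR adjusted p = 0.00420) and -1.01 ± 0.17 against aortic sinus (0.0261). Against pulmonary sinus the call held in all 11 fits with a library left out. Against aortic sinus it held in 6 of 11 and ended without autograft replicate 1 or 2 or aortic replicate 1, 3 or 4, with adjusted p of up to 0.0903. In the authors' FPKM tables, whose library distributions were made equal before deposit, the values of PLN took only 4 levels over the 11 libraries in each run. On these values the estimate was -1.46 ± 0.45 against pulmonary sinus and the call ended (limma adjusted p = 0.0598), as it did against aortic sinus (-1.27 ± 0.45, adjusted p = 0.139).

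Both store pump genes fell against both native sinuses. ATP2A2, which encodes the SERCA2 pump found in smooth and heart muscle, had 331, 344 and 392 CPM in the autografts. It had 660, 500, 629 and 532 CPM in aortic sinus and 570, 657, 508 and 576 CPM in pulmonary sinus. The native sinuses covered the same range and the autografts lay below it. The fall was the smallest of the called genes, at -0.70 ± 0.14 against pulmonary sinus (edgeR adjusted p = 0.0149) and -0.71 ± 0.14 against aortic sinus (0.0338). The first call ended without autograft replicate 2 (adjusted p = 0.0520). The second ended without autograft replicate 1 or 2 or aortic replicate 1, 3 or 4 (up to 0.106), and without animal D3 (0.0754).

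ATP2A3 encodes SERCA3, a pump known from platelets, lymphocytes, endothelium and some smooth muscle. It fell most of the 10 genes, to 17.2, 14.3 and 17.4 CPM in the autografts. The aortic libraries had 46.4, 90.1, 90.6 and 41.9 CPM and the pulmonary libraries 76.8, 107, 123 and 60.0 CPM. The native libraries were widely spread, but the lowest of them lay far above the highest autograft. The log2 fold change was -2.49 ± 0.34 against pulmonary sinus (edgeR adjusted p = 0.00573) and -2.05 ± 0.33 against aortic sinus (0.0241). Counted from the most negative, this was rank 44 of 14979 genes against pulmonary sinus and rank 82 against aortic sinus. The first call held in all 11 fits with a library left out. The second ended without autograft replicate 2 (adjusted p = 0.0841) and without aortic replicate 3 (0.0673).

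**Figure D2:**
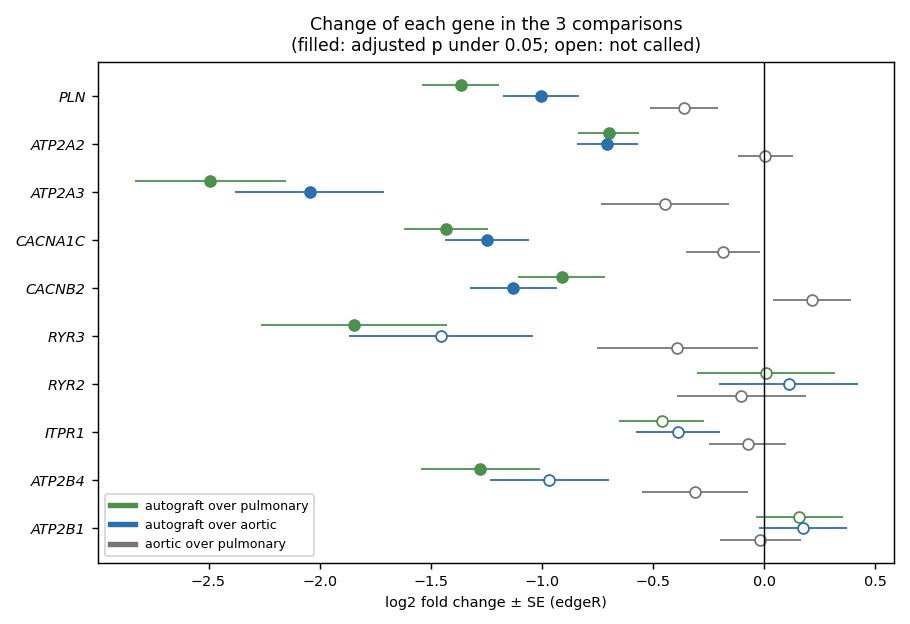
Log2 fold changes ± SE from edgeR for the 10 genes, with autograft over pulmonary in green, autograft over aortic in blue and aortic over pulmonary in grey. Filled points have an adjusted p under 0.05. ATP2A3 lies farthest left at -2.49, ATP2A2 is the least changed of the called genes at -0.70, and RYR2 and ATP2B1 lie beside 0.

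Among the release channels, RYR3 passed against pulmonary sinus and RYR2 and ITPR1 in neither comparison, and the differences between them were not tested. RYR3, a ryanodine receptor expressed in smooth muscle and brain, had 16.4, 9.14 and 28.7 CPM in the autografts. It had 53.6, 44.4, 67.7 and 32.9 CPM in aortic sinus and 39.7, 91.9, 81.7 and 46.9 CPM in pulmonary sinus. The autografts lay below all native libraries, although autograft replicate 3 came close to the lowest aortic library. The native sinuses overlapped with each other. RYR3 fell against pulmonary sinus (-1.85 ± 0.42, edgeR adjusted p = 0.0225). The call ended without autograft replicate 1 (0.0577), autograft replicate 2 (0.0686), pulmonary replicate 2 (0.0603) or pulmonary replicate 3 (0.0610). Against aortic sinus the value was -1.45 ± 0.41 with an adjusted p = 0.0831.

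RYR2, the ryanodine receptor of heart muscle that is also present in arteries, had 24.6, 22.9 and 13.3 CPM in the autografts. It had 19.4, 13.3, 20.9 and 21.4 CPM in aortic sinus and 21.2, 30.4, 11.5 and 17.6 CPM in pulmonary sinus. The 3 groups covered the same range. The estimates were 0.01 ± 0.31 against pulmonary sinus and 0.11 ± 0.31 against aortic sinus (edgeR adjusted p = 0.989 and 0.860), and their sign changed between settings.

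ITPR1 encodes the type 1 inositol trisphosphate receptor, the main one of vascular smooth muscle. It had 126, 103 and 171 CPM in the autografts, 181, 141, 203 and 172 CPM in aortic sinus and 149, 211, 201 and 172 CPM in pulmonary sinus. Autograft replicate 3 lay inside both native ranges, and the other autografts lay below them. ITPR1 stood at -0.46 ± 0.19 against pulmonary sinus (edgeR adjusted p = 0.129) and at -0.39 ± 0.19 against aortic sinus (0.250). It passed only in the fit without autograft replicate 3, against pulmonary sinus (adjusted p = 0.0468).

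Of the plasma membrane pump genes, ATP2B4 passed against pulmonary sinus and ATP2B1 in neither comparison, and the difference between them was not tested. ATP2B1, the more widely expressed of them, had 91.0, 61.8 and 46.1 CPM in the autografts. It had 59.1, 62.8, 58.9 and 53.8 CPM in aortic sinus and 70.8, 54.2, 51.3 and 61.3 CPM in pulmonary sinus. The autografts held both the highest and the lowest of the 11 values. The estimates were 0.16 ± 0.20 and 0.18 ± 0.20 against pulmonary and aortic sinus (edgeR adjusted p = 0.621 and 0.626), and both turned negative in some settings. ATP2B4 had 7.37, 6.0 and 8.23 CPM in the autografts, against 8.42, 12.1, 20.4 and 15.4 CPM in aortic sinus and 15.1, 16.8, 18.0 and 19.8 CPM in pulmonary sinus. The autografts lay below all native libraries, by a narrow margin under aortic replicate 1, and the native sinuses overlapped with each other. ATP2B4 fell against pulmonary sinus (-1.28 ± 0.27, edgeR adjusted p = 0.0179), and the call ended without autograft replicate 2 (0.0650) and on the reads of the first run alone (0.0507). Against aortic sinus it stood at -0.97 ± 0.27 with an adjusted p = 0.0799.

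The count of genes whose autograft libraries all lay below the other group was 7 of 10 against each native sinus. Of all genes, this held for 11.2% against pulmonary sinus and 10.8% against aortic sinus. These shares too are a description, since the 10 genes were chosen with earlier results known. RYR3 and ATP2B4 make up the difference between 7 without overlap and 5 called against aortic sinus. DESeq2 called all 7 against aortic sinus (adjusted p = 0.00823 for RYR3 and 0.0156 for ATP2B4), beside 1469 of all genes. How many were called, of these as of all genes, rested on single libraries. Without autograft replicate 2 there were 3 called against pulmonary sinus and 0 against aortic sinus. Of all genes, 452 and 25 were then called, where all libraries gave 1699 and 356. Against aortic sinus there were also 2 without autograft replicate 1, 2 without aortic replicate 1, 1 without aortic replicate 3 and 2 without aortic replicate 4. In the same order 170, 61, 30 and 70 of all genes were called. With these libraries left out, each of the called genes kept a negative estimate in every fit.

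The native sinuses were not told apart by these genes. In aortic over pulmonary sinus, edgeR called 0 of the 10 and 0 of 14979 genes (0% in each direction), as did DESeq2 and limma-voom. Unadjusted p was under 0.05 for 1 of the 10 genes, PLN, and for 306 genes in all (2.04%). The aortic libraries of PLN all lay below the pulmonary ones (true of 0.701% of all genes), at 1802 against 1805 CPM where they came closest. PLN stood at 1734 ± 55.7 CPM in aortic and 2227 ± 419 CPM in pulmonary sinus (SD, n = 4 each), a log2 fold change of -0.36 ± 0.15. The estimates of the other 9 genes lay between -0.45 ± 0.29 for ATP2A3 and 0.22 ± 0.18 for CACNB2. This comparison is also the test of whether the autograft's change differs between the 2 native references, and for no member did it pass.

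Between genes, levels can be compared only per length, for which the authors' FPKM values were averaged over both runs. PLN was highest in each group, with 1008 ± 616 FPKM in the autograft (SD, n = 3), 2128 ± 626 FPKM in aortic and 2399 ± 542 FPKM in pulmonary sinus (SD, n = 4 each). These PLN means rest on tied values and are rough. Autograft replicate 2, aortic replicates 2 and 3 and pulmonary replicate 1 all had 1586 FPKM, with 820, 1708, 1802 and 1805 CPM. ATP2A2 followed with 43.2 ± 3.08, 70.3 ± 6.0 and 71.3 ± 4.64 FPKM in autograft, aortic and pulmonary sinus (SD), and ITPR1 came next with 9.29 ± 2.19, 11.9 ± 1.60 and 12.4 ± 2.10 FPKM. RYR2 was lowest in each group, at 0.871 ± 0.296, 0.895 ± 0.170 and 0.962 ± 0.415 FPKM. The ranks between them differed by group. ATP2A3 had rank 7 in the autograft at 1.75 ± 0.363 FPKM, rank 6 in aortic sinus at 6.54 ± 2.57 FPKM and rank 4 in pulmonary sinus at 9.10 ± 2.70 FPKM. In native tissue it differed from ATP2B4 and ATP2B1 by less than its own SD.

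Ratios between genes of one library do not depend on its scaling. The autografts had 2.21, 2.38 and 2.649 PLN counts per ATP2A2 count, against 2.655, 3.42, 2.87 and 3.15 in aortic sinus and 3.16, 4.25, 4.06 and 3.90 in pulmonary sinus. The autografts lay below all native libraries, with autograft replicate 3 just under aortic replicate 1. Per 100 ATP2A2 counts there were 5.18, 4.14 and 4.45 ATP2A3 counts in the autografts. The native ratios ran from 7.02 to 18.0 in aortic and from 10.4 to 24.2 in pulmonary sinus, again all above the autografts. The counts of RYR3 per RYR2 count were 0.668, 0.399 and 2.15 in the autografts, and only autograft replicate 3 lay within the native values of 1.53 to 3.33 in aortic and 1.87 to 7.12 in pulmonary sinus. Counts of ATP2B1 per 100 ATP2A2 counts were 27.5, 17.9 and 11.8 in the autografts, of which the lowest lay among the native values of 8.25 to 12.6. These ratios were chosen after the values were seen and carry no test.

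**Figure D3:**
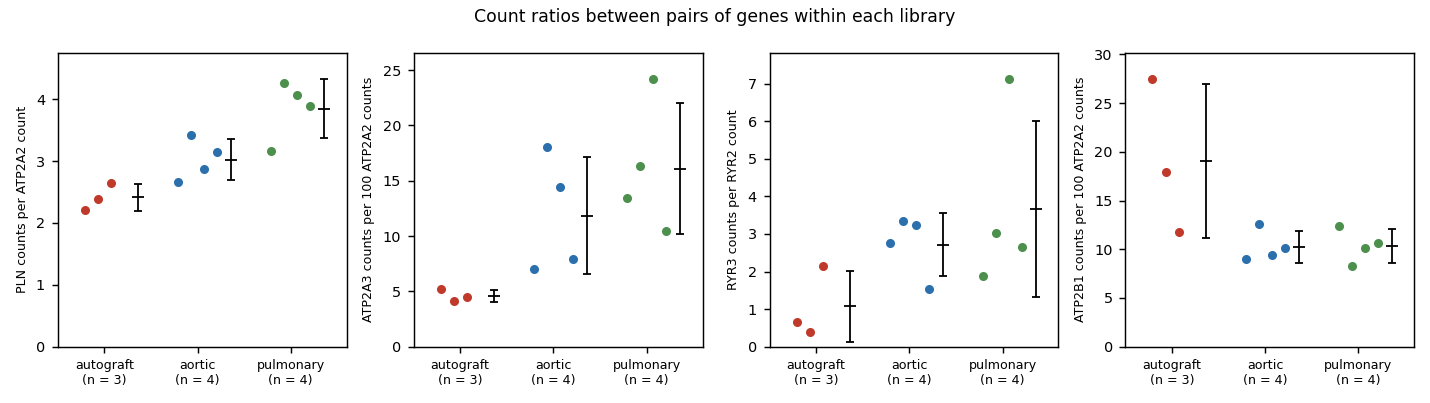
Ratios of counts between 2 genes of the same library on linear axes from 0, with bars for mean ± SD. PLN per ATP2A2 and ATP2A3 per ATP2A2 are lower in the 3 autograft libraries (up to 2.649 and 5.18) than in all 8 native ones, while RYR3 per RYR2 and ATP2B1 per ATP2A2 overlap.

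In bulk tissue, fewer smooth muscle cells and less RNA per cell cannot be told apart. The libraries carried the markers of arterial wall: 7 of 8 listed contractile smooth muscle markers had a row, all with counts, and summed to 24070, 46292 and 47750 CPM in the autografts. The sums were 49101 to 69510 CPM in aortic and 51127 to 83702 CPM in pulmonary sinus, so that the autografts were lower, most of all autograft replicate 1. Of these 7 markers, 3 fell against pulmonary and 1 against aortic sinus, where 5.29% and 1.43% of all genes fell. Against pulmonary sinus, where 6.05% of all genes rose, 5 of 7 T and natural killer cell, 3 of 8 macrophage, 2 of 9 endothelial and 1 of 6 fibroblast markers rose. Against aortic sinus, where 0.948% rose, these were 3, 0, 0 and 1. The 6 fibroblast markers summed to 11319, 8670 and 11720 CPM in the autografts against 4473 to 5820 CPM in aortic and 2105 to 7357 CPM in pulmonary sinus. The 7 T and natural killer cell markers summed to 31.0 to 39.9 CPM in the autografts against 1.88 to 8.85 CPM in native tissue. Endothelial markers (9 of 9 with a row) ran from 182 to 1635 CPM in the autografts, 257 to 607 CPM in aortic and 126 to 435 CPM in pulmonary sinus, and macrophage markers (8 of 9) from 131 to 1257 CPM, 123 to 404 CPM and 54.3 to 291 CPM in the same order. The part of these shifts in the falls above was not tested.

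Set against the summed smooth muscle markers of the same library, only part of the falls stayed free of overlap. Per 10000 marker counts, CACNA1C had 6.75, 3.16 and 3.16 counts in the autografts, against 4.78 to 7.40 in aortic and 5.72 to 8.35 in pulmonary sinus. Autograft replicate 1, the library with the lowest marker sum, lay inside the native range and the other autografts below it. PLN had 305, 177 and 217 counts on this scale in the autografts, against 259 to 341 in aortic and 303 to 417 in pulmonary sinus, with the same split. ATP2A3 had 7.13, 3.08 and 3.65 in the autografts against 7.10 to 17.8 and 11.1 to 18.0, and ATP2A2 had 138, 74.4 and 82.1 against 90.5 to 108 and 74.6 to 112. In all, 2 of the 10 genes (ATP2A3 and RYR3) lay below pulmonary sinus without overlap and 0 below aortic sinus. Without autograft replicate 1 these were 5 (CACNA1C, PLN, ATP2A3, ATP2B4 and RYR3) and 6 (CACNA1C, CACNB2, PLN, ATP2A2, ATP2A3 and RYR3), with 2 autograft libraries left. The share of all genes without overlap was not computed on this scale, and fewer libraries avoid overlap more easily. These counts are therefore not read as a trait of the 10 genes. The marker genes themselves differ between the groups, so this scale, chosen like the left-out library after seeing the data, is a description.

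**Figure D4:**
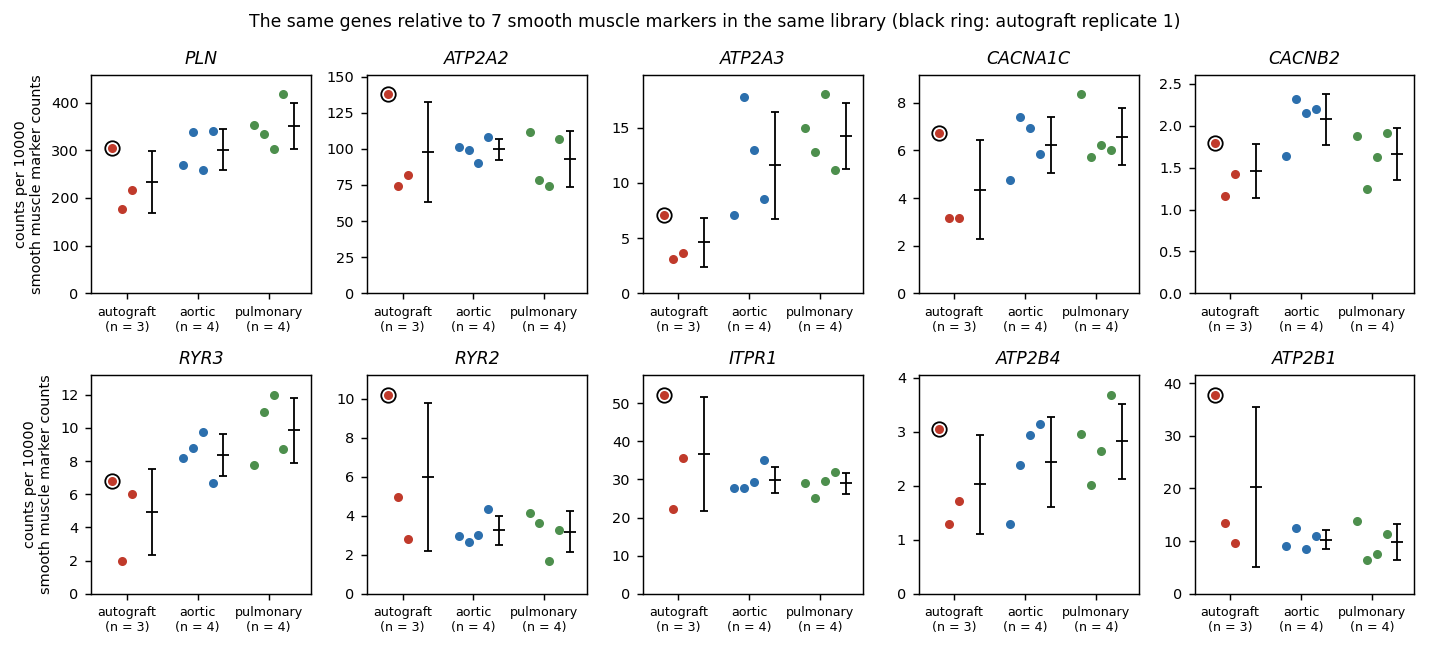
Counts of each gene per 10000 summed counts of 7 contractile smooth muscle markers in the same library, on linear axes from 0, with bars for mean ± SD. Autograft replicate 1, ringed, lies above the other autografts for all 10 genes, at 6.75 against 3.16 and 3.16 for CACNA1C.

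RYR2, PLN and ATP2A2 are also heart muscle genes, and the sinus wall borders on the heart. Of 12 cardiomyocyte markers 11 had a row, and they summed to 38.5, 203 and 121 CPM in the autografts, 148 to 398 CPM in aortic and 124 to 387 CPM in pulmonary sinus, with TNNT2 at up to 328 CPM (aortic replicate 1). Of the 9 markers tested, 1 fell and 0 rose against pulmonary sinus, where 5.29% of all genes fell. Against aortic sinus 0 fell and 0 rose. MYH7 had 9.22, 7.80 and 9.94 CPM in the autografts, below the native values of 12.3 to 80.4 CPM. TNNT2, at 8.89, 165 and 88.1 CPM in the autografts, overlapped with native tissue. The natriuretic peptide genes NPPA and NPPB had at most 0.250 CPM in any library. The ventricular light chain gene MYL2 was at 20.7 CPM in aortic replicate 2 and at most 1.36 CPM in the other 10 libraries. In that library RYR2 had 13.3 CPM, the lowest of the aortic values, PLN had 1708 CPM, inside the aortic range, and ATP2A2 had 500.1 CPM, the lowest of the aortic values. The libraries with the highest cardiomyocyte sums were aortic replicate 1 (398 CPM) and pulmonary replicate 2 (387 CPM). Of these sums TNNT2 gave 328 and 316 CPM and MYH7 51.0 and 54.9 CPM. TNNI3 stood at 0 and 0.400 CPM in them, and MYL2 at 0.558 and 0.228 CPM. Aortic replicate 1 had the highest ATP2A2 of the 11 libraries (660 CPM). Pulmonary replicate 2 had the highest PLN (2794 CPM) and RYR2 (30.4 CPM) and 657 CPM of ATP2A2. It also had the highest smooth muscle marker sum (83702 CPM). Autograft replicate 1, with the lowest cardiomyocyte sum (38.5 CPM), had the lowest PLN (733 CPM) and ATP2A2 (331 CPM) but an RYR2 of 24.6 CPM. Its TNNI3 was at 6.13 CPM, and its smooth muscle marker sum was also the lowest (24070 CPM). The part of heart muscle RNA in the values of these genes was not tested. For ATP2A3, known from platelets, the 4 of 5 platelet markers with a row summed to 14.7 to 25.2 CPM in the autografts, 12.3 to 13.9 CPM in aortic and 10.4 to 14.9 CPM in pulmonary sinus. PPBP among them was at or near 0 in all libraries.

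Other calcium handling genes were called in both directions. Of 79 names listed, 76 had a row and 65 were tested. Against pulmonary sinus 6 fell and 6 rose, where 5.29% of all genes fell and 6.05% rose, with a median log2 fold change of 0.01 beside 0.00 for all genes. The 6 with the smallest p were the beta subunit gene CACNB1, which fell (-1.08 ± 0.17), the sodium-calcium exchanger genes SLC8A2 (-1.53 ± 0.25) and SLC8A1 (-1.31 ± 0.28), the mitochondrial uniporter gene MCU (-0.71 ± 0.14) and the junctophilin gene JPH2 (-1.34 ± 0.29), whose product ties the store to the plasma membrane, all lower, and the release channel gene ITPR2, which rose (0.93 ± 0.19). Their edgeR adjusted p lay between 0.00914 and 0.0195. The remaining calls were the calmodulin-dependent kinase gene CAMK2G, lower, and SARAF, which restrains store-operated entry, TRDN and SRI, whose products bind the ryanodine receptor, and RCN1 and RCN2, higher. RCN1 and RCN2 encode calcium-binding proteins of the secretory pathway. Against aortic sinus 3 fell (CACNB1, SLC8A2 and MCU) and 1 rose (ITPR2), where 1.43% of all genes fell and 0.948% rose, with a median of -0.03, and 0 of 65 were called between the native sinuses in edgeR.

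ITPR2, the gene of the type 2 receptor, rose against both native sinuses. ITPR1 passed in neither comparison, and the difference between them was not tested. ITPR2 had 44.2, 42.1 and 29.5 CPM in the autografts. It had 19.4, 23.3, 19.5 and 21.5 CPM in aortic sinus and 26.3, 15.5, 19.96 and 19.3 CPM in pulmonary sinus, all below the autografts. SLC8A1, the main exchanger gene of muscle, had 59.2, 56.2 and 72.3 CPM in the autografts. It had 99.8 to 195 CPM in pulmonary sinus, without overlap, and 66.2 to 136 CPM in aortic sinus, where autograft replicate 3 lay above the lowest library.

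**Figure D5:**
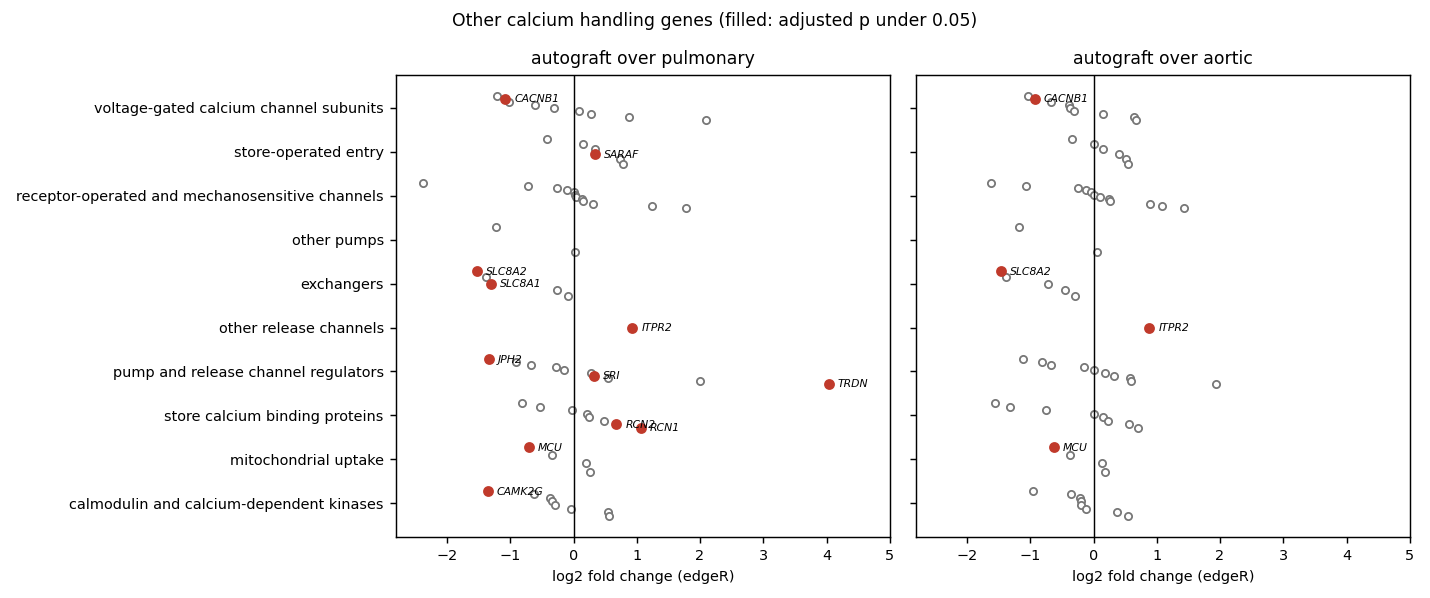
Log2 fold changes of 65 other calcium handling genes by role, autograft over pulmonary (left) and autograft over aortic (right). Filled, named points have an adjusted p under 0.05: 6 lower and 6 higher against pulmonary sinus, 3 lower and 1 higher against aortic sinus.

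Profiles most like those of 3 of the genes were looked for among 10929 genes of at least 5 CPM, by the root mean square distance of log2 CPM over the 11 libraries after each gene was centred on its own mean. Closest to PLN were LOC101116246 (distance 0.14), TACC2 (0.15) and LOC101104627, named PBXIP1 in RefSeq (0.18), where PLN itself varied by 0.58 around its mean. Closest to CACNA1C were EML1 (0.14), MAP4K2 (0.16) and PITPNM2 (0.18), with 0.63 for CACNA1C itself. ATP2A3 had no neighbour as close, with CNTNAP1 at 0.33 and MAPK4 at 0.39, beside 1.08 for ATP2A3 itself. EML1, for example, averaged 20.1 CPM in the autograft, 43.5 CPM in aortic and 48.6 CPM in pulmonary sinus.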

How the data were processed

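Per the labels' protocols, TRIzol was used for RNA extraction and a TruSeq kit for the libraries. Of tools, featureCounts 1.5.3, STAR 2.5.2b, cutadapt and Bowtie2 2.3.3.1 appear in the submitters' processing notes, without their roles. No source states the genome build, annotation or strand setting, so reads of overlapping or antisense genes cannot be separated. The authors deposited raw counts and FPKM values, 1 table of each per sequencing run. The 22 sample entries are 11 libraries in 2 runs. Runs were summed per library: the chi-square of counts divided by the number of genes was 1.39 to 1.52 for the runs of a library and 31.9 to 112 for libraries of a group. A row without a gene name (at most 0.000522% of counts) was left out. The deposited FPKM, averaged over runs, served for levels per length and as an alternative unit.

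Genes were filtered with filterByExpr (14979 kept, all 10 members among them), scaled by TMM, and fitted over all 3 groups with edgeR 4.0.16 (R 4.3.3) without a block. Alternatives used DESeq2 1.42.0 and limma 3.58.1, other scalings, no filter, single runs and left-out libraries. The precision is limited by 3 or 4 animals a group. The labels give the animals, so aortic and pulmonary libraries of 1 animal are paired. Their deviations from the group means correlated by -0.18 (D3), -0.14 (D4), 0.43 (D5) and 0.45 (D6). Aortic and pulmonary libraries of different animals correlated by -0.292 to 0.396. The members and lists were chosen with earlier results of these data known. All 10 members are named, and of the other calcium handling genes the 6 called with the smallest p. The 79 names of that list include 1 gene under both its older and its newer symbol. 1 gene near ATP2A3 in profile is not reported here.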

Additional observations from a re-analysis of the deposited data

How the results depend on the processing

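Against pulmonary sinus, 3 to 8 of the 10 genes were called when 1 library was left out (all libraries: 7), and 452 to 2753 of all genes (all libraries: 1699). Against aortic sinus these ranges were 0 to 5 (all libraries: 5) and 25 to 576 (all libraries: 356). Without animal D3, 3 of the 10 genes and 110 of all genes were called against aortic sinus. Fitting only the 2 groups compared gave 5 of the 10 genes and 479 of all genes against pulmonary sinus. Against aortic sinus the calls of CACNB2 and ATP2A2 ended in that fit. DESeq2 called 2997 of all genes against pulmonary and 1469 against aortic sinus. The cause of these shifts was not tested, nor was the part of the smaller number of samples in fits that leave some out. No value of a called gene changed sign in 300 values over the alternatives. The sign changed in 47 of 457 values of genes that were not called, most often for RYR2 and for ATP2A2 between the native sinuses. With animal as a random replicate block in limma-voom, 7 of the 10 genes and 1611 of all genes were called against pulmonary sinus. Against aortic sinus the members called were the same as without the block. With animal as a fixed replicate block between the native sinuses, 0 genes were called in edgeR. The pairing by animal changed no call of the 10 genes. In the deposited FPKM tables, PLN was not called against pulmonary (adjusted p of 0.0544 to 0.0598) or aortic sinus (0.129 to 0.139). CACNB2 and RYR3 were not called against pulmonary sinus when only those 2 groups were fitted (adjusted p = 0.0603 for each), nor CACNB2 and ATP2A2 against aortic sinus (0.0524 for each). The lowest count in a library was 77 for CACNB2 and 5890 for ATP2A2, and the part of depth in the lost calls was not tested.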

Other observations

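Of the other calcium handling genes that did not pass the test, those named here were chosen after their values were seen. The ATP-gated cation channel gene P2RX1 had the most negative estimate of that list against pulmonary sinus, at -2.39 ± 0.71 (edgeR adjusted p = 0.0522). It averaged 20.9 CPM in the autograft and 109 CPM in pulmonary sinus. The T-type calcium channel gene CACNA1G averaged 11.1 CPM in the autograft and 25.8 CPM in pulmonary sinus (-1.22 ± 0.39, adjusted p = 0.0671). The plasma membrane pump gene ATP2B3 averaged 6.67 CPM in the autograft and 15.7 CPM in pulmonary sinus (-1.23 ± 0.40, adjusted p = 0.0701).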
